A study of Arabidopsis thaliana with 40 samples.

Results

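Total mRNA of K48M seedlings kept in the dark was set against that of Col-0 seedlings kept in the dark, gene by gene. The 4 libraries of this comparison, 2 of K48M and 2 of Col-0, are among the 40 samples of a series on Arabidopsis thaliana under water. They were chosen by the genotype and condition in the headers of the authors' count tables. K48M carries an overexpressed SnRK1.1K48M in the Col-0 background, and Col-0 is the wild type. All 4 libraries came from whole seedlings 9 days old after 3 h in the dark, without submergence. Which promoter drives the transgene, how many lines the label K48M covers and how many seedlings a library pools is not given in the sources used here. Since these are whole seedlings, fewer cells of a type and less RNA per cell cannot be told apart. Each group has 1 library of a set named ST_FR (replicate 1) and 1 of a set named LTF_GG (replicate 2), and the p-values measure only the spread between libraries, here that of all 16 libraries fitted together, which may be technical.

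SnRK1 is the plant relative of the kinases SNF1 of yeast and AMPK of animals. It is active when sugar or energy is short, as in darkness or low oxygen, and it then raises transcripts of catabolism and lowers those of growth. The enzyme holds a catalytic subunit, KIN10 (SnRK1.1) or KIN11, with beta and gamma-type subunits, and the upstream kinases SnAK1 and SnAK2 phosphorylate its activation loop. In K48M the lysine of KIN10 that takes part in binding ATP is replaced by methionine, and such a form lacks kinase activity and is used to interfere with the endogenous enzyme. The comparison asks how dark seedlings that overexpress this form differ from the wild type in their mRNA. Kinase activity was not among the measurements.

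The codon that the transgene's change concerns and the same stretch of the paralogue are shown, since both genes are read from the same kind of counts below. The sequences are the reference alleles of assembly TAIR10.1 (RefSeq annotation), 5′ to 3′ on the coding strand, with the lysine codon in capitals.
KIN10: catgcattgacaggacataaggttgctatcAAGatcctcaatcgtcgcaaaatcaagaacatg
KIN11: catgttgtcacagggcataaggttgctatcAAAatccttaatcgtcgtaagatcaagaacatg
The KIN10 stretch lies at chr3:33804-33866 on the minus strand, in a coding exon, and the codon is number 48 in 2 of the 3 annotated transcripts. The third transcript encodes 535 residues in place of 512, and another residue is at its position 48. The KIN11 stretch lies at chr3:11131334-11131396 on the minus strand, also in a coding exon, with the lysine codon at number 49. The 63 bases differ at 9 positions between the genes. The deposited counts do not tell the altered allele from the endogenous one.

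The condition of 1 of the 4 libraries is in conflict. Its title and treatment label (library LTF_GG04) give K48M under submergence, while the column header and the authors' index give K48M control, and the opposite holds for LTF_GG03. The headers were followed here. Summed over 19 core hypoxia genes, such as the fermentation genes ADH1 and PDC1, LTF_GG04 had 526 CPM (counts per 1 M reads of a library, after TMM scaling) and the ST_FR K48M dark library 796 CPM, against 839 CPM in the ST_FR and 384 CPM in the LTF_GG dark library of Col-0. The 4 libraries that the headers call submerged had between 8604 and 10418 CPM over the same genes, with LTF_GG03 at 9804 CPM. In the sums, LTF_GG04 lay within the range of the other dark libraries. Values without it or with the titles' conditions that turn a result stand beside it or with the alternatives at the end.

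Gene reads came to 6.10 M in the ST_FR and 5.93 M in the LTF_GG library of K48M, against 5.96 M and 6.77 M in those of Col-0. Ribosomal RNA genes held 5.03% and 1.0% of these reads in K48M, against 8.36% and 1.84% in Col-0. The genes were tested in 1 edgeR quasi-likelihood fit over the 16 libraries of the experiment, with a term for the library set, and 19024 genes passed the filter on low counts. The median absolute difference of a gene between the 2 K48M libraries was 0.39 on the log2 scale, and between the 2 Col-0 libraries 0.35. Between the genotypes it was 0.30 in the ST_FR set and 0.51 in the LTF_GG set. The differences within a genotype also hold the difference between the library sets, while those between genotypes were taken within 1 set. The 2 kinds are thus not alike, and their sizes do not give the noise of the genotype comparison.

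KIN10 (AT3G01090, chr3:31145-34670 in TAIR10.1) stood at 1171 CPM and 1334 CPM in the ST_FR and LTF_GG libraries of K48M, against 27.8 CPM and 36.9 CPM in those of Col-0. The means were 1253 ± 116 CPM in K48M and 32.4 ± 6.38 CPM in Col-0 (SD, n = 2 each), and the groups were far apart in both sets. The log2 fold change was 5.28 ± 0.32 (standard error here and below), a 38.8-fold higher level (edgeR quasi-likelihood test, Benjamini-Hochberg adjusted p = 5.19e-07). KIN10 was the only gene of the 19024 with an adjusted p under 0.05, which is 0.00526% of the genes tested. No gene was called lower in K48M, while 2374 genes had an unadjusted p under 0.05. Without LTF_GG04 the KIN10 value was 5.26 (adjusted p = 1.25e-06), and with the titles' conditions it was 5.39 (adjusted p = 1.42e-05).

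The authors counted reads on transcript models, and the 3 models of KIN10 overlap, so that 0.117% of its reads in the 4 libraries matched a single model. The first model, AT3G01090.1, held 75.6% and 51.2% of the KIN10 reads in K48M, against 68.5% and 80.0% in Col-0. One K48M share lay between the Col-0 shares and the other below both. How shared reads were divided between models is not given in the sources used here, so reads were summed per gene.

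Of the SnRK1 list, 9 of 10 genes were measured, and KIN10 alone passed the test, as it did in DESeq2. KIN11 (AT3G29160), the other catalytic subunit, stood at 23.3 CPM and 22.6 CPM in K48M, against 23.7 CPM and 29.3 CPM in Col-0, and lay below both Col-0 libraries by little (log2 −0.18 ± 0.27, adjusted p = 0.805). The KIN11 difference was 0.13 without LTF_GG04 and 0.05 with the titles' conditions. The plot of both paralogues over all 16 libraries shows KIN10 far apart between the genotypes in every condition, while KIN11 ranged between 14.4 CPM and 34.8 CPM over all libraries. The plant-specific small beta subunit KINB3 had 16.3 CPM and 13.6 CPM in K48M, against 10.9 CPM and 9.33 CPM in Col-0 (0.55 ± 0.30, adjusted p = 0.456). KINB2, another beta subunit, had a log2 difference of 0.38 ± 0.23 (adjusted p = 0.489). SnAK2 had one of −0.41 ± 0.32 (adjusted p = 0.597). None of these passed, and the median of the list was 0.04, against 0.03 for all genes tested. KIN12, the remaining member, had no read in the 4 libraries.

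**Figure D1:**
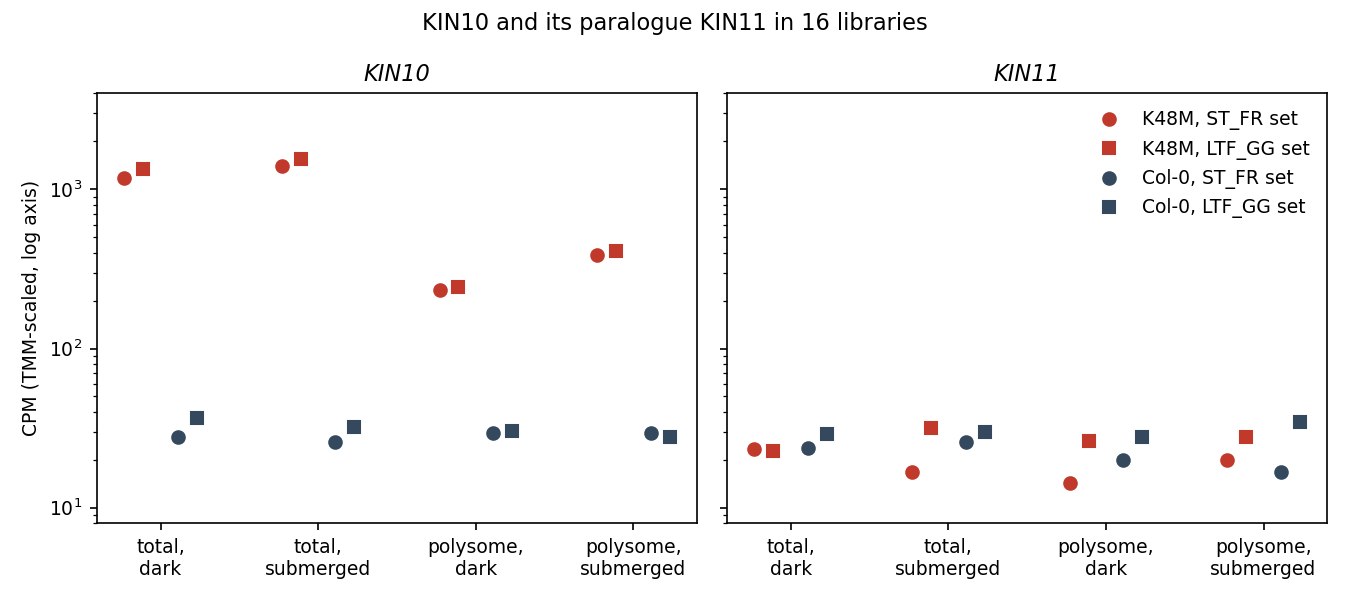
Levels of KIN10 (left) and KIN11 (right) in CPM on a log axis in the 16 libraries, K48M red and Col-0 dark blue, circles for the ST_FR set and squares for the LTF_GG set. KIN10 was at 1171 and 1334 CPM in K48M total mRNA in the dark, against 27.8 and 36.9 CPM in Col-0, while KIN11 was at 23.3 and 22.6 CPM in K48M, against 23.7 and 29.3 CPM in Col-0.

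KIN10 also passed in the other 3 conditions of the experiment, each time as the only gene called in the fit of 16 libraries. The log2 fold change was 5.67 ± 0.33 in submerged total mRNA (adjusted p = 2.43e-07), 2.99 ± 0.29 in dark polysome RNA (adjusted p = 0.000524) and 3.79 ± 0.30 in submerged polysome RNA (adjusted p = 2.54e-05). In dark polysome RNA it stood at 232 CPM and 243 CPM in K48M, against 29.4 CPM and 30.4 CPM in Col-0. Its K48M effect in total mRNA did not differ detectably between submergence and dark (difference 0.39 ± 0.38, adjusted p = 1). No gene passed that test of the difference, while 166 had an unadjusted p under 0.05 and DESeq2 called 1.

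For the genes other than KIN10, those with the smallest p-values and the same direction in both library sets are given, up to 10 in each direction. None of them passed in the edgeR fit of 16 libraries, while most passed in DESeq2 or in edgeR on the 4 libraries alone, as given below. The 9 genes higher in K48M were short transcripts of at most 1181 bases (median 617), with log2 differences of 1.05 to 1.61 and adjusted p between 0.157 and 0.233. Over all genes tested, 1200 genes (6.31%) had an unadjusted p under 0.05 with K48M higher and 1174 (6.17%) with K48M lower. Both K48M libraries lay above both Col-0 libraries for 21.5% of all genes tested and below them for 21.1%. The named genes thus stand at the head of a ranking and are not calls of the 16-library fit, and separate groups among them restate how they were chosen.

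AT1G29250, an Alba-type protein that binds DNA or RNA, had 124 CPM and 112 CPM in K48M, against 48.9 CPM and 33.6 CPM in Col-0 (1.56 ± 0.28, adjusted p = 0.157). AT2G34160, of the same Alba family, had 53.2 CPM and 44.6 CPM in K48M, against 27 CPM and 20.5 CPM in Col-0 (1.05 ± 0.22, adjusted p = 0.233). Both Alba genes were higher in each K48M library than in each Col-0 library. SDH8, a plant-specific subunit of the mitochondrial succinate dehydrogenase, had 132 CPM and 120 CPM in K48M, against 58.2 CPM and 46.0 CPM in Col-0 (1.29 ± 0.24, adjusted p = 0.157). PPa6, the plastid inorganic pyrophosphatase, had 454 CPM and 416 CPM in K48M, against 203 CPM and 143 CPM in Col-0 (1.37 ± 0.29, adjusted p = 0.233). The organelle proteins SDH8 and PPa6 are nuclear-encoded, and each was higher in both K48M libraries. AT1G10682, annotated as a noncoding RNA, had 189 CPM and 253 CPM in K48M, against 72.9 CPM and 86.2 CPM in Col-0 (1.46 ± 0.26, adjusted p = 0.157). AT4G33550, of the lipid-transfer protein family, differed by 1.61 ± 0.33 and AT4G31310, of the AIG2-like family, by 1.23 ± 0.25 (adjusted p = 0.233 for both). AT1G49310 and AT3G22210, which the files describe as unknown proteins, differed by 1.39 ± 0.29 and 1.34 ± 0.29 (adjusted p = 0.233 for both). AT3G22210 shares 278 bases with POP2 on the opposite strand, so its reads may include those of its neighbour.

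The 10 genes lower in K48M were longer, 1290 to 2263 bases, with log2 differences between −2.26 and −1.21. SOS4, a pyridoxal kinase that makes vitamin B6 cofactor, had 18.0 CPM and 19.7 CPM in K48M, against 44.6 CPM and 56.9 CPM in Col-0 (−1.41 ± 0.24, adjusted p = 0.151). AT4G32060, an EF-hand calcium-binding protein, had 63.4 CPM and 46.2 CPM in K48M, against 135 CPM and 218 CPM in Col-0 (−1.59 ± 0.30, adjusted p = 0.157). Both were lower in each K48M library than in each Col-0 library. LpxC3, of the bacterial-type lipid A pathway, had 6.18 CPM and 4.48 CPM in K48M, against 21.9 CPM and 32.3 CPM in Col-0 (−2.26 ± 0.43, adjusted p = 0.157). LpxC3 has near-identical copies next to it in the genome, and 1.48% of its reads matched a single model, so its count is uncertain. FEI2, a receptor-like kinase of cell wall growth, had 9.76 CPM and 7.40 CPM in K48M, against 21.7 CPM and 27.2 CPM in Col-0 (−1.46 ± 0.31, adjusted p = 0.233). PTR4, a peptide transporter family member, had 3.09 CPM and 3.31 CPM in K48M, against 8.12 CPM and 11.2 CPM in Col-0 (−1.56 ± 0.32, adjusted p = 0.233). FEI2 and PTR4 were low in both K48M libraries, like 21.1% of all genes tested. The remaining genes were AT4G00590 (an N-terminal nucleophile hydrolase, −1.80 ± 0.33), AT2G02410 (a protein of unknown function, −1.89 ± 0.36), AT5G50180 (a protein kinase, −1.21 ± 0.26), the long noncoding RNA AT1G29357 (−1.74 ± 0.37) and AT3G29410 (of the terpenoid cyclase superfamily, −1.63 ± 0.33), with adjusted p between 0.157 and 0.233. AT1G29357 shares 1492 bases with AT1G29355 on the opposite strand, and without stated strandedness their reads cannot be told apart.

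**Figure D2:**
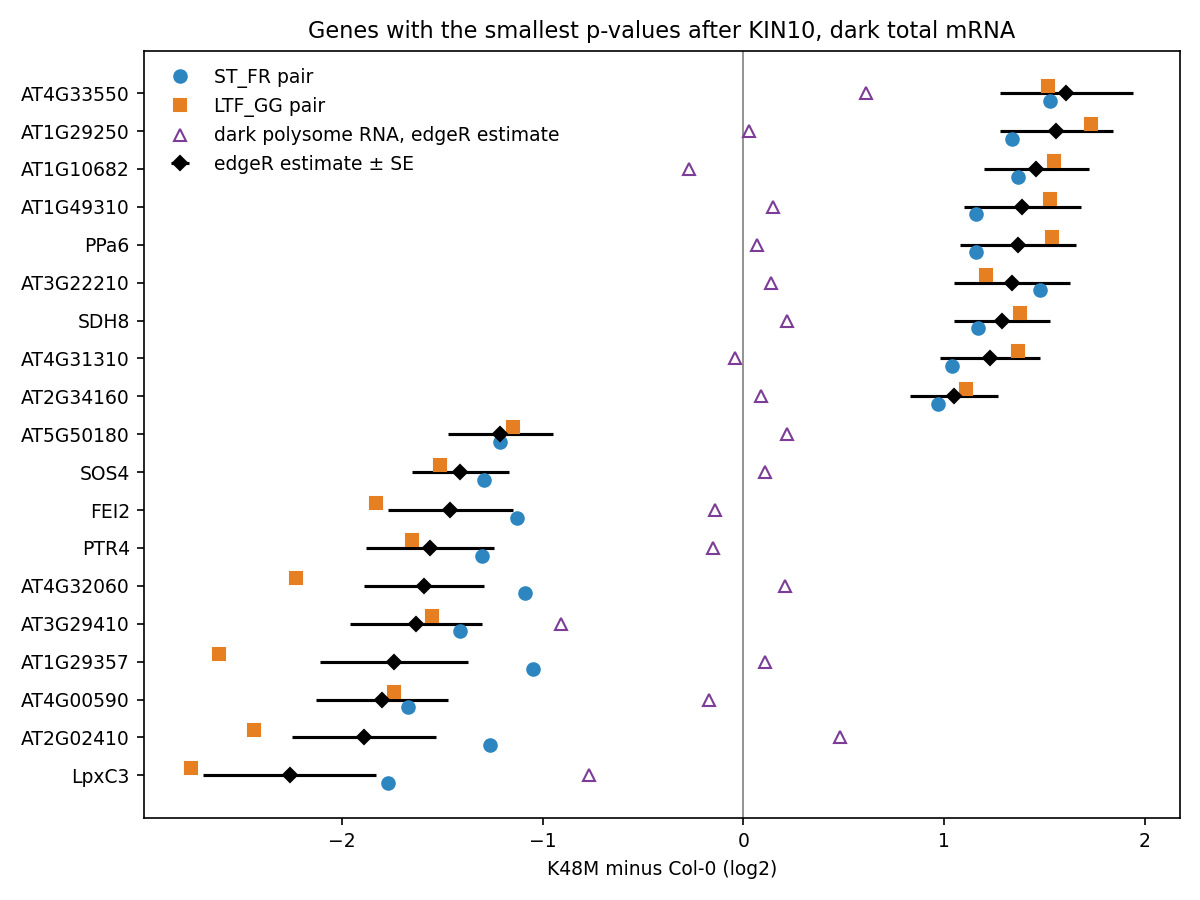
K48M minus Col-0 on the log2 scale for the 19 named genes other than KIN10: edgeR estimate with its standard error (diamonds), the ST_FR pair (circles), the LTF_GG pair (squares) and the edgeR estimate in dark polysome RNA (open triangles). Both pairs lie on the same side of 0 for every gene, by the rule that chose them, and the triangles lie between −0.91 and 0.61.

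The same 19 genes were also read in the other conditions, whose libraries share the spread and the set term of the fit that ranked them. In submerged total mRNA the 9 higher genes differed by 0.29 to 1.83 (median 0.63) and the 10 lower genes by −2.0 to −0.40 (median −0.90), all in the direction seen in the dark. The length gradient described below also had the same direction in that condition, by its LTF_GG pair. In dark polysome RNA the medians were 0.09 and −0.02, with 7 of 9 above 0 and 5 of 10 below 0. In submerged polysome RNA they were 0.01 and −0.07. All 19024 genes showed the same order of conditions. Their differences in dark total mRNA had r = 0.59 with those in submerged total mRNA. With dark polysome RNA r was 0.09, and with submerged polysome RNA it was −0.01. In the fit of 16 libraries no gene but KIN10 passed in any of these conditions. Among the edgeR alternatives, AT1G29357 passed in submerged total mRNA without either K48M dark library (adjusted p = 0.0122 without the ST_FR and 0.0123 without the LTF_GG one). The difference between the fractions in the dark was itself tested in the same fit, and each of the 19 genes had an adjusted p of 0.873 for it. No gene passed it in that fit, with 1018 at an unadjusted p under 0.05, whereas DESeq2 called KIN10 alone and edgeR without the ST_FR library of K48M called ATX2 (adjusted p = 0.0384). DESeq2 also called AT1G29357 in submerged total mRNA.

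DESeq2, on the same design, called 32 of 12016 genes that kept an adjusted p (0.266%), 20 higher and 12 lower in K48M, and these included 8 of the 9 higher genes and 7 of the 10 lower genes above. Among its other calls, SKU5, a cell wall protein of root growth, had 79.5 CPM and 83.4 CPM in K48M, against 173 CPM and 199 CPM in Col-0 (edgeR −1.19 ± 0.26, DESeq2 adjusted p = 0.00746). ALDH7B4, an aldehyde dehydrogenase of stress responses, had 82.0 CPM and 97.2 CPM in K48M, against 181 CPM and 226 CPM in Col-0 (−1.18 ± 0.30, DESeq2 adjusted p = 0.0263). KELP, a transcriptional coactivator, had 88.5 CPM and 85.3 CPM in K48M, against 28.2 CPM and 37.3 CPM in Col-0 (1.37 ± 0.30, DESeq2 adjusted p = 0.0263). These 3 were chosen after their values were seen, and none passed in the edgeR fit of 16 libraries (adjusted p between 0.233 and 0.245). An edgeR fit of the 4 libraries alone, with the set as a term and 1 residual degree of freedom, called 107 of 18052 genes (0.593%), 30 higher and 77 lower. It shared 21 genes with DESeq2, 65.6% of the DESeq2 calls and 19.6% of its own. KELP was among its calls (adjusted p = 0.00986), while SKU5 and ALDH7B4 were not. The higher and lower genes named above were also among its calls, apart from AT2G34160, PPa6, PTR4 and AT5G50180. Without the ST_FR library of K48M the 16-library design called 140 genes, 40 higher and 100 lower, and without LTF_GG04 it called KIN10 alone, with 1221 genes at an unadjusted p under 0.05. The number of calls beyond KIN10 thus depended on the fit and on 1 library. The direction of the calls also went with transcript length. In DESeq2 the median length was 720.5 bases for genes called higher and 1528.5 for those called lower. In the 4-library fit it was 720.5 and 1988 bases, against 1532 for all genes tested.

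The direction of the small differences went with transcript length. In the fit of all 16 libraries the median log2 difference was 0.45 for genes with transcripts of up to 500 bases and 0.43 for the 1611 genes of 500 to 750 bases. It was −0.15 for the 3658 genes of 2000 to 3000 bases and −0.31 for the 1646 genes over 3000 bases. The LTF_GG pair carried most of this gradient, with medians of 0.71 and −0.60 in the shortest and longest bins, while the ST_FR pair had 0.07 and −0.05. Of the 1965 genes up to 750 bases, 315 had an unadjusted p under 0.05 with K48M higher and 10 with K48M lower. Of the 5304 over 2000 bases, 131 had K48M higher and 561 K48M lower. Submerged total mRNA showed a gradient of the same direction in the fit (0.39 and −0.38 in the outer bins). Its ST_FR pair did not, as given below. Dark polysome RNA showed hardly any gradient (0.02 and −0.05).

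Relative to the mean of all 16 libraries, the median of genes up to 750 bases exceeded that of genes over 2000 bases by 0.66 in LTF_GG04 and by 0.21 in the ST_FR library of K48M, against 0.06 in the ST_FR and −0.39 in the LTF_GG library of Col-0. Of these 4, the LTF_GG libraries thus lay at the ends and the ST_FR libraries between them. In the other LTF_GG libraries the value was 0.45 in LTF_GG03 and between −0.71 and −0.26 elsewhere. In the ST_FR pair of submerged total mRNA it was 0.19 in K48M, against 0.33 in Col-0, the opposite order to the LTF_GG pair. In a fit with a smooth length trend per library taken out, the median of the shortest bin was −0.03 and that of the longest 0.00. That fit called KIN10 (5.43 ± 0.31) and ARO1, which is described below. The 9 higher genes then stood at 0.70 to 1.31 and the 10 lower at −2.23 to −1.13. The part of RNA quality or library preparation in the gradient was not tested.

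**Figure D3:**
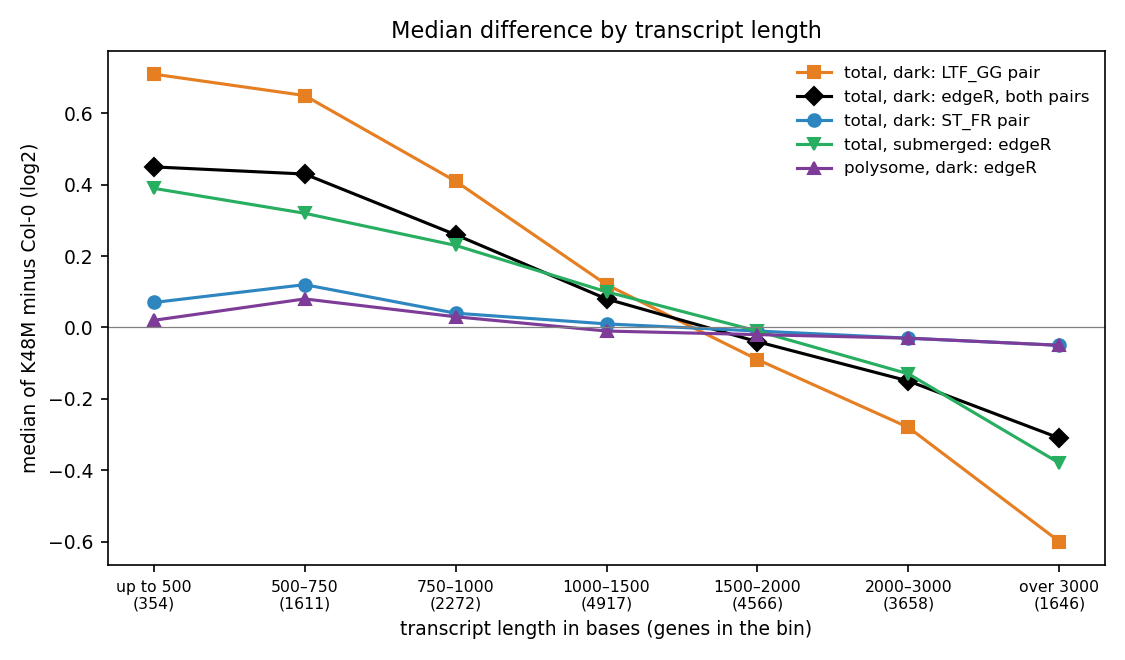
Median of K48M minus Col-0 (log2) for genes in 7 bins of transcript length in bases (number of genes under each bin), for dark total mRNA in the LTF_GG pair (squares), the edgeR fit (diamonds) and the ST_FR pair (circles), and for the edgeR fit of submerged total mRNA and dark polysome RNA (triangles down and up). The LTF_GG pair of dark total mRNA runs between 0.71 and −0.60, the ST_FR pair between 0.12 and −0.05, and dark polysome RNA stays between 0.08 and −0.05.

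Across the 19024 genes, the differences of the ST_FR pair and of the LTF_GG pair had a correlation of r = 0.23, and 58.9% of the genes had the same sign in both. These pairs share no library, but each reads all genes from the same preparation. In the scatter of the pairs KIN10 had the largest difference of all genes in the ST_FR pair and the largest but that of ARO1, described below, in the LTF_GG pair.

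**Figure D4:**
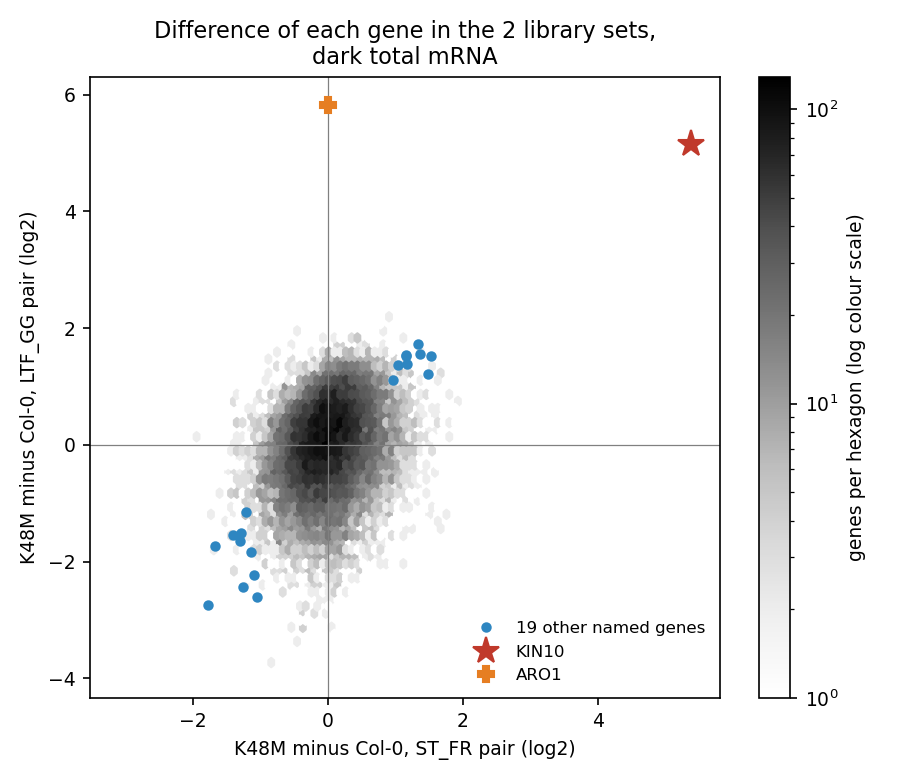
Each gene's K48M minus Col-0 difference in log2 CPM (prior count 2) in the ST_FR pair (horizontal) and the LTF_GG pair (vertical), as a density of 19024 genes with KIN10 (star), ARO1 (plus) and the 19 other named genes (dots). KIN10 lies at 5.38 and 5.16, and ARO1 at 0.00 and 5.82.

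Among the gene lists, the light-harvesting and Rubisco genes, which encode the antenna proteins of photosynthesis and the small subunit of the carbon-fixing enzyme, had the highest median difference in the fit of 16 libraries. It was 0.72 over 23 genes, 22 of which were above 0, against a median of 0.03 and 52.1% above 0 for all genes. No member passed the adjustment, and 2 had an unadjusted p under 0.05, both higher, against 6.31% of all genes. The antenna gene LHCA1 had 5302 CPM and 8153 CPM in K48M, against 3744 CPM and 3094 CPM in Col-0 (0.97 ± 0.43, adjusted p = 0.377). The Rubisco gene RBCS1B had 371 CPM and 855 CPM in K48M, against 326 CPM and 318 CPM in Col-0 (0.85 ± 0.38, adjusted p = 0.379). For both genes the K48M libraries were above the Col-0 libraries, with the widest gap in the LTF_GG set. Summed over the list, the levels were 128045 CPM and 184567 CPM in K48M, against 111972 CPM and 75224 CPM in Col-0. The median was 0.22 in the ST_FR pair and 1.19 in the LTF_GG pair, 0.23 without LTF_GG04, 0.62 with the length trend taken out, and −0.16 in dark polysome RNA. In the ST_FR pair, without LTF_GG04 and with the length trend taken out, the anthocyanin and flavonoid list was higher (0.39, 0.82 and 0.69). Several of the light-harvesting and Rubisco genes are near-identical copies, which can make the counts of single members uncertain. Of the reads in the 4 libraries, 99.9% matched a single model for LHCB1.1 and LHCB1.3, but 35.2% for RBCS1A.

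The starvation genes, which darkness and sugar shortage raise and many of which are used as readouts of SnRK1 activity, had the lowest median in the fit of 16 libraries, −0.38 over 23 genes. Of these, 5 had an unadjusted p under 0.05 with K48M lower, against 6.17% of all genes, and none with K48M higher, against 6.31%. None passed the adjustment. DIN4, a subunit of the branched-chain keto acid dehydrogenase, had 29.3 CPM and 56.5 CPM in K48M, against 48.2 CPM and 135 CPM in Col-0 (−1.0 ± 0.30, adjusted p = 0.278). DIN3, another subunit of that complex, had 20.2 CPM and 59.4 CPM in K48M, against 38.3 CPM and 88.6 CPM in Col-0 (−0.74 ± 0.24, adjusted p = 0.287). MCCA, a carboxylase subunit of leucine breakdown, had 39.5 CPM and 82.0 CPM in K48M, against 55.0 CPM and 264 CPM in Col-0 (−1.15 ± 0.42, adjusted p = 0.322). All 3 act in breakdown of branched-chain amino acids, and each was lower in K48M in both sets, although the levels of the sets differed so much that the groups overlap. The other 2 were the beta-glucosidase gene DIN2 (−0.86 ± 0.40) and the glutamate dehydrogenase gene GDH2 (−0.67 ± 0.32). ASN1 (DIN6), the asparagine synthetase often used as a SnRK1 readout, had 48.9 CPM and 298 CPM in K48M, against 58.7 CPM and 489 CPM in Col-0 (−0.54 ± 0.65, adjusted p = 0.739). SEN1, a senescence-associated dark-inducible gene, had a difference of −0.49 ± 0.42 and DIN10 one of −0.05 ± 0.35. The median of the list was −0.13 in the ST_FR pair, −0.42 in the LTF_GG pair, −0.28 without LTF_GG04, −0.19 with the length trend taken out, 0.04 in submerged total mRNA and −0.14 in dark polysome RNA. In both pairs and in the other alternatives named, at least 1 other list was lower, the heat shock genes with −0.35 without LTF_GG04 and −0.40 with the length trend taken out. With the titles' conditions ASN1 stood at 0.12, GDH2 at 0.02 and DIN10 at 0.71.

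Of 12 SnRK1 substrates, 1 had an unadjusted p under 0.05 in each direction, against 6.31% of all genes higher and 6.17% lower. F2KP, the enzyme that makes and degrades the regulator fructose 2,6-bisphosphate, had 26.3 CPM and 21.0 CPM in K48M, against 43.1 CPM and 75.2 CPM in Col-0 (−1.27 ± 0.32, adjusted p = 0.241). Both K48M libraries lay below both Col-0 libraries. The cap-binding factor EIF4E, which is also in the list of 6 translation initiation factors as its 1 gene at that level, differed by 0.50 ± 0.21 (adjusted p = 0.360). EIFISO4G1, the scaffold factor that the series also studies through the mutant i4g1-2, had 70.4 CPM and 85.3 CPM in K48M, against 101 CPM and 77.0 CPM in Col-0, and its groups overlapped (−0.18 ± 0.26, adjusted p = 0.788).

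The anthocyanin and flavonoid genes, pigment enzymes that sugar raises, had a median of 0.68, with 7 of 10 listed genes measured. All 7 were above 0, against 52.1% of all genes. Among the 7, DFR had 6 and 1 reads in K48M, against 2 and 1 reads in Col-0. LDOX had 4 and 3 reads in K48M, against 2 and 1 reads in Col-0. The direction of DFR and LDOX is uncertain at so few reads. TT7, the flavonoid hydroxylase, had 3.09 CPM and 5.07 CPM in K48M, against 1.82 CPM and 1.73 CPM in Col-0 (1.18 ± 0.44, adjusted p = 0.327). It was the 1 member with an unadjusted p under 0.05, against 6.31% of all genes with K48M higher. CHS, chalcone synthase, had 80.7 CPM and 43.1 CPM in K48M, against 80.2 CPM and 16.9 CPM in Col-0, equal in the ST_FR set and higher in K48M in the LTF_GG set. The median was 0.39 in the ST_FR pair and 0.91 in the LTF_GG pair, and −0.08 in dark polysome RNA. Of the 10, PAP1, UF3GT and TT8 had at most 2 reads in a library and were not tested.

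Of 15 measured defence and jasmonate genes, 3 had an unadjusted p under 0.05, all lower in K48M, against 6.17% of all genes. PR1, the pathogenesis-related protein used as a marker of salicylic acid signalling, had 2 and 0 reads in K48M, against 33 and 32 reads in Col-0. PR2, a beta-glucanase of the same response, had 1 and 2 reads in K48M, against 9 and 54 reads in Col-0. The reads of both genes were few, and their groups were separate in both sets. The fitted differences were −4.52 ± 1.26 for PR1 and −3.71 ± 1.09 for PR2 (adjusted p = 0.264 and 0.275). PR1 passed in the fit of the 4 libraries alone (adjusted p = 0.000126). In dark polysome RNA, PR1 stood at 0.261 CPM and 0.18 CPM in K48M, against 4.67 CPM and 6.15 CPM in Col-0 (−4.56 ± 1.3, unadjusted p = 0.00296, adjusted p = 1). Under submergence the fitted total mRNA differences were −1.17 for PR1 and 1.16 for PR2. The third gene, WRKY70, a transcription factor of that pathway, differed by −0.81 ± 0.34 (adjusted p = 0.360). PR5, a further gene of the list, had an estimate in the other direction (0.49 ± 0.39, adjusted p = 0.604). It had 6.34 CPM and 9.55 CPM in K48M, against 7.46 CPM and 4.15 CPM in Col-0, so its groups overlapped. Of the 15 genes, 9 were above 0. The median of the list was 0.13, but −0.03 and −0.15 in the ST_FR and LTF_GG pairs.

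In the remaining lists at most 2 genes had an unadjusted p under 0.05, a level that 6.31% of all genes reached with K48M higher and 6.17% with K48M lower. Of the 19 core hypoxia genes, 2 had an unadjusted p under 0.05, both lower: the phosphofructokinase gene PFK6 (−0.93 ± 0.36, adjusted p = 0.338) and the sucrose synthase gene SUS4 (−1.06 ± 0.45, adjusted p = 0.361). The list's median was 0.12, but −0.10 in the ST_FR pair. Of 11 measured abscisic acid genes, COR15A, a cold and drought protein of the chloroplast, had 3.58 CPM and 6.24 CPM in K48M, against 0.663 CPM and 2.19 CPM in Col-0 (1.76 ± 0.43, adjusted p = 0.241). It was the 1 member with an unadjusted p under 0.05, and the median was −0.12, but 0.21 without LTF_GG04. Of 18 clock genes, RVE8 (−1.25 ± 0.53, adjusted p = 0.361) and PRR9 (−1.75 ± 0.80, adjusted p = 0.387) were lower at an unadjusted p under 0.05. PRR9 had 10 and 0 reads in K48M, against 31 and 6 reads in Col-0. The clock median was −0.24, but −0.05 both in the ST_FR pair and without LTF_GG04. Of 17 heat shock genes, the small chaperone gene HSP17.6II was lower at an unadjusted p under 0.05 (−1.50 ± 0.46), with a median of −0.26. None of 5 nitrate assimilation genes (median 0.29, but −0.04 in the ST_FR pair) and none of 11 shade and growth genes (median −0.17) reached that level.

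**Figure D5:**
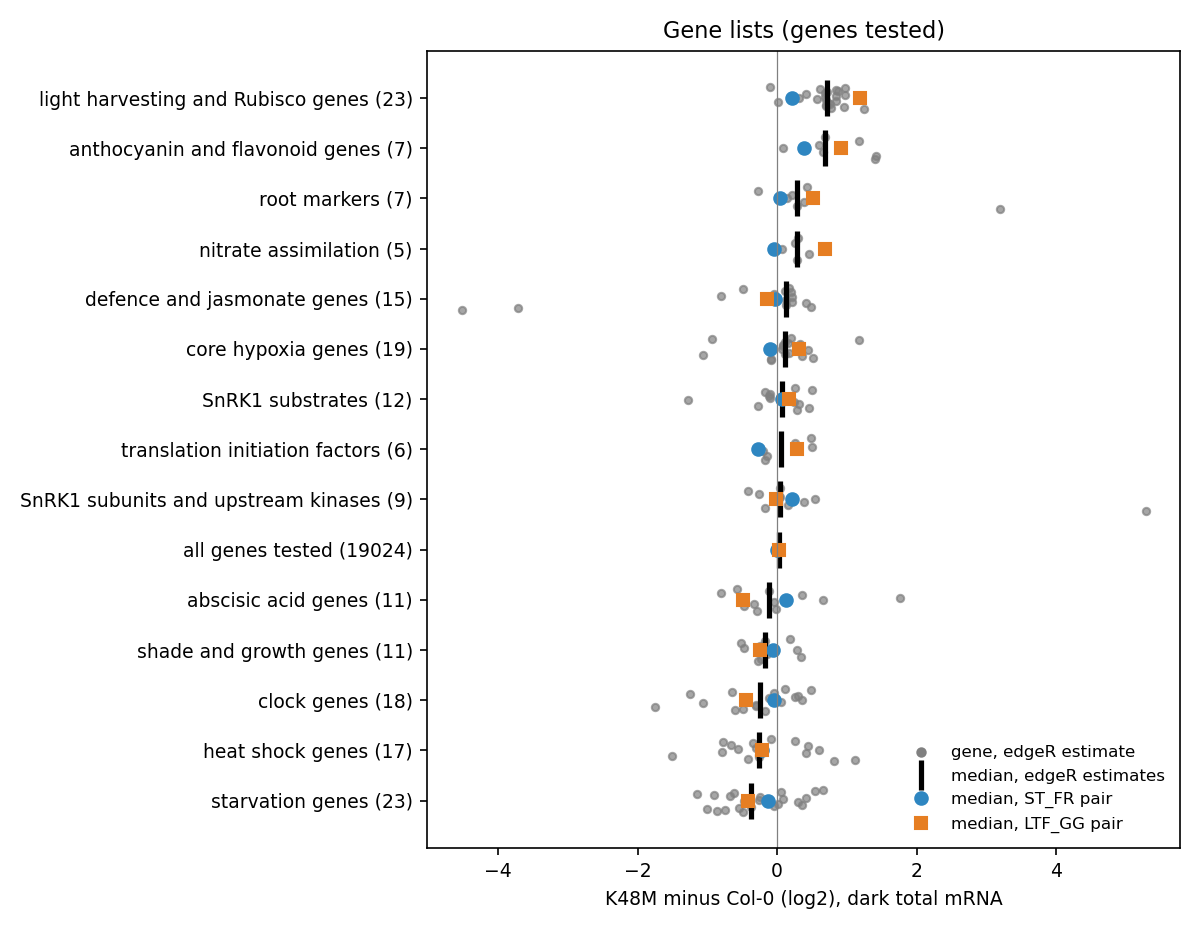
K48M minus Col-0 (log2, dark total mRNA) of each tested gene of 14 lists (grey dots), with the list's median in the edgeR fit (bars), the ST_FR pair (circles) and the LTF_GG pair (squares), beside all 19024 genes. The median runs between 0.72 for the light-harvesting and Rubisco genes and −0.38 for the starvation genes.

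The tissue was checked with markers of root and seed. Over 7 measured root markers, among them the Casparian strip protein CASP1 and the auxin carrier PIN2, the summed level was 183 CPM and 281 CPM in K48M, against 175 CPM and 178 CPM in Col-0 (median difference 0.29). The iron transporter gene IRT1, at 0.163 CPM and 2.53 CPM in K48M against 0 and 0.230 CPM in Col-0, was the 1 root marker with an unadjusted p under 0.05. Of all genes, 6.31% reached that level with K48M higher. The quiescent-centre gene WOX5 was too low to test, at 5 and 1 reads in K48M, against 0 and 5 reads in Col-0. All 9 seed storage and oil body genes had at most 3 reads in each of the 4 libraries. Whether the root share played a part in the results was not tested.

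Averaged over the 4 conditions of the experiment, the contrast of K48M and Col-0 called 3 genes (0.0158%), KIN10, ARO1 and AT3G29410, a comparison added after the data had been seen. AT3G29410 was lower in K48M in 8 of 8 pairs of libraries (−1.25 ± 0.16, adjusted p = 0.00678). In the dark total libraries it had 1.46 CPM and 6.82 CPM in K48M, against 4.47 CPM and 20.7 CPM in Col-0, so that the difference between the sets exceeded that between the genotypes. Without LTF_GG04, and without the term for the set, KIN10 alone passed in the average. Without the ST_FR library of K48M in the dark 39 genes passed.

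ARO1 (AT4G34940, chr4:16639526-16641950 in TAIR10.1), an armadillo-repeat protein known for its role in pollen tube growth, was present in 1 set of the line only. It had 0 reads in the ST_FR and 103 reads in the LTF_GG library of K48M (20.1 CPM), against 0 reads in both Col-0 libraries. Set against a floor of 3 reads in the LTF_GG Col-0 library, it was at least 58.1-fold higher in the LTF_GG library of K48M. The other 3 LTF_GG libraries of K48M had 136 reads in submerged total mRNA, 58 in dark and 105 in submerged polysome RNA. All 4 ST_FR libraries of K48M and all 8 Col-0 libraries had none. ARO1 thus separated the 2 K48M sets in both fractions and conditions, and whether both sets come from 1 line is not given in the sources used here. Since no ST_FR library had a read, each ARO1 difference rests on 1 K48M and 1 Col-0 library of the LTF_GG set. The p-values of ARO1 thus do not measure the spread between the 2 K48M libraries of a condition, which disagree. In dark total mRNA its adjusted p was 0.124. Without the filter on low counts it passed in all 4 conditions, and in submerged total mRNA it also passed with the length trend taken out (adjusted p = 0.0152), without ribosomal RNA and organelle genes (adjusted p = 0.0257) and without either K48M dark library (adjusted p = 0.0255 without the ST_FR and 0.0385 without the LTF_GG one). In the fit of 16 libraries it passed in none of them, and it fell outside the rule for named genes since the ST_FR pair shows no difference.

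The isocitrate lyase gene ICL and the malate synthase gene MLS, whose enzymes form the glyoxylate cycle that turns seed oil into sugar, were singled out after their values were seen. ICL had 4.07 CPM and 2.92 CPM in K48M, against 0.829 CPM and 0.346 CPM in Col-0 (2.59 ± 0.57, adjusted p = 0.233). MLS had 6.99 CPM and 4.48 CPM in K48M, against 4.81 CPM and 2.53 CPM in Col-0 (0.67 ± 0.33, adjusted p = 0.422). ICL had few reads in these libraries, 25 and 15 in K48M, against 5 and 3 in Col-0. Both genes were higher in K48M in 8 of 8 pairs of libraries, which restates how they were singled out. The share of all genes with 8 of 8 pairs in 1 direction is not given here, which also holds for AT3G29410 above. Neither ICL nor MLS passed the average over the 4 conditions (1.60 ± 0.28, adjusted p = 0.0968, and 0.87 ± 0.17, adjusted p = 0.18). Without the filter on low counts ICL passed in the average (adjusted p = 0.0223), as did LpxC3, AT1G29357, PTR4 and AT4G33550.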

How the data were processed

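Read counts in whole numbers, total and unique, were deposited by the authors for each transcript model. The submitters' processing notes name TAIR10. Neither aligner nor strandedness is given in the sources used here. Beside the counts, the files give each model's length in bases as the authors deposited it, and a gene's length is that of its longest model. Summing 41660 models by locus gave 33592 genes, and 32825 of them have an entry in the TAIR10.1 annotation. Each table has 11 rows without an identifier, at most 0.0084% of a library's reads, which were left out.

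The 16 libraries of K48M and Col-0 entered 1 model in edgeR 4.0.16 (R 4.3.3): TMM scaling (factors 1.01 and 0.867 in K48M, 1.01 and 1.28 in Col-0), filterByExpr (minimum count 10, minimum total 15), a term per group and one for the library set, quasi-likelihood tests with 7 residual degrees of freedom, and Benjamini-Hochberg adjustment with a threshold of 0.05. The biological coefficient of variation was 23.3%. DESeq2 1.42.0 was an alternative. The script was tested on simulated data. Standard errors are the absolute log2 fold change over the root of F, and differences of pairs use log2 CPM with a prior count of 2. The floors cover counting error only, while the standard errors also hold the spread between libraries. The members, the lists and the tests were chosen with earlier results of these data known. The genes named were KIN10, up to 10 genes per direction with the smallest p and the same sign in both sets, and up to 4 genes per list with the smallest p; others are said to be chosen after their values were seen.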

Additional observations from a re-analysis of the deposited data

Results flagged for a closer look

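The estimated K48M effect on KIN10 in the dark was smaller in polysome RNA than in total mRNA. The difference itself was called by DESeq2 but not by edgeR. The log2 fold change was 2.99 ± 0.29 in polysome RNA and 5.28 ± 0.32 in total mRNA, a difference of −2.29 ± 0.39 with an unadjusted p of 2.7e-05 in edgeR. Adjusted over all genes it did not pass in edgeR (adjusted p = 0.514), and it passed in DESeq2 (adjusted p = 5.02e-08). In Col-0 KIN10 stood at 29.4 CPM and 30.4 CPM in polysome RNA and at 27.8 CPM and 36.9 CPM in total mRNA of the dark.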

How the results depend on the processing

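KIN10 passed under every alternative that gave it a value, between 5.25 and 5.43 apart from the runs that left out a library (5.14 to 5.43). Unique reads gave it no value, since it then failed the filter, and 0 genes were called. Beside the 1 gene called in dark total mRNA, DESeq2 called 32, no filter on low counts 2, the length-corrected fit, added after the data had been seen, 2, the 4 libraries alone with the set 107, and leaving out a library between 1 and 140. Without the replicate block, that is the term for the library set, the count was 1, and the average of the 4 conditions fell to 1 of 3 calls. The sets pair the libraries only in part: deviations from the group means had r between −0.10 and 0.64 over 28 pairs of groups. For the difference between submergence and dark, DESeq2 called 1 gene against 0. For the average, DESeq2 called 26, no filter 11, both conflicting libraries left out 1, and leaving out a library between 1 and 39.

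Of the 71 other named genes, none passed in dark total mRNA in the fit of 16 libraries. In DESeq2 15 of them passed, and in the edgeR fit of the 4 libraries alone with the set as a term 17 did. Some of the 71 turned sign, none of them called. With the titles' conditions these were DIN3 (0.19), PFK6 (0.56), SUS4 (4.12), HSP17.6II (2.35), HSP101 (1.17), HSP17.8-CI (2.12), RVE7 (0.00), CYP707A1 (0.36), PR5 (−0.22) and PIF5 (0.43). Those conditions put LTF_GG03, with 9804 CPM over the core hypoxia genes, into the dark group. Without both conflicting libraries the genes that turned were SnAK2 (0.02), NRT2.1 (−0.93), PRR3 (0.22), PIF4 (0.00) and EIF4A1 (−0.03). With unique reads they were PIF4 (0.12) and PIF5 (0.29), and length-corrected SPS1F (0.06) and EIF4G (0.25). Leaving out each library in turn, NIA1 ranged between −0.13 and 0.86, NRT1.1 between −0.03 and 0.61, PIN2 between −0.01 and 0.65, NRT2.1 between −0.79 and 1.1, NIP2;1 between −0.12 and 2.09 and PRR3 between −2.27 and 0.13. The smallest change detectable at this depth was not determined.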
